A study of Homo sapiens with 4 samples.

Results

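N4-acetylcytidine (ac4C) peaks were mapped in FaDu cells after knockdown of NAT10, and the list of 6417 peaks called there is described here, out of 12820 peaks in the 2 deposited lists. Every peak of the shNAT10 list was kept, and no threshold was added. FaDu is an established line of human hypopharyngeal squamous cell carcinoma. The shNAT10 cells carry a short hairpin RNA against NAT10, and the control cells (shNC) carry a control hairpin. Both conditions come from the same line, and no source used here says whether the knockdown line is a clone or a pool. Each condition had 1 library of RNA precipitated with an ac4C antibody (IP) and 1 library of input RNA, so that the study's acRIP-seq holds 4 libraries and no replicates. A peak is a stretch of transcript with more IP than input signal, and its fold enrichment is that ratio on a linear scale as the authors gave it. Fold enrichments were set against each other within a list and not between the 2 lists. No difference between conditions could be tested, and the depth of the libraries is unknown from the lists.

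NAT10 is the acetyltransferase that writes ac4C on RNA. It modifies tRNA together with the adaptor THUMPD1 and 18S ribosomal RNA with the help of box C/D small nucleolar RNAs, and ac4C has been mapped on mRNA as well. An antibody pulls down fragments rather than single bases, so a peak marks a window that holds signal and not the acetylated cytidine. A knockdown can leave some enzyme in the cell, and a peak in these cells therefore does not show whether its acetylation depends on NAT10.

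The 6417 peaks fell on 4987 genes. Symbols were found for 4661 of these genes, which held 94.1% of the peaks, and 4357 of the named genes were protein-coding. Another 123 were long noncoding RNA genes and 64 were pseudogenes. The only named ribosomal RNA genes were the 2 mitochondrial ones. Of 19983 protein-coding genes of RefSeq, 4355 had at least 1 peak, or 21.8%. Genes whose peaks stayed without a symbol count as having none, here and in the gene lists below. Median fold enrichment was 12.4 over all peaks (95% interval over peaks 11.8 to 12.7), with 7.32 at the 25th and 23.7 at the 75th percentile. The range ran from 1.17 to 366. Intervals here cover the sampling of peaks or genes and not the spread between libraries.

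NAT10 itself still carried a peak. Its single peak lay on chromosome 11, held 239 nt of exon in 1 block, had a fold enrichment of 12 and a log10 p-value of -14.9, and shared bases with a shNC peak. The peak lists hold no transcript levels, so the knockdown itself was not checked here. The paper reports a check of NAT10 knockdown in FaDu cells by qRT-PCR and western blot. Of the 4 core proteins of the box C/D particle, all had peaks. NOP56 had 4 peaks with fold enrichments from 4.23 to 7.10. The methyltransferase FBL had one of 745 nt in 5 blocks at 27.6 and another of 150 nt at 8.26. NOP58 had peaks at 11.8 and 5.87, and SNU13 at 13.7 and 4.37. THUMPD1 had no peak. Fold enrichment of the 11 peaks of these 5 genes had a median of 7.10, beside 12.4 over all peaks.

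Small RNAs that lie inside exons came to sit under these peaks, and their sequences can be shown. Of 1562 miRNA hairpins in the RefSeq table (GRCh38.p14), 11 shared bases with a peak on the same strand and 7 lay wholly inside one. The mature sequences of 4 of these hairpins are given, chosen because their host peaks had the highest fold enrichments of the 7, with the seed (bases 2 to 8) in capitals.
hsa-miR-1244: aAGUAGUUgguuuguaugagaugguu
hsa-miR-671-5p: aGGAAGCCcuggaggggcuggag
hsa-miR-671-3p: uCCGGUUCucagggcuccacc
hsa-miR-675-5p: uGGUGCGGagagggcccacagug
hsa-miR-675-3p: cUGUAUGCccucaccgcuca
hsa-miR-4709-5p: aCAACAGUgacuugcucuccaa
hsa-miR-4709-3p: uUGAAGAGgaggugcucuguagc
The 11 mature miRNAs of the 7 hairpins had 11 different seeds. MIR1244-1 (chr2:231713314-231713398) lay in the peak on PTMA, which encodes prothymosin alpha. That peak of 419 nt had a fold enrichment of 108, whereas the other peaks of PTMA stood at 1.53 and 1.75. PTMA and this hairpin have near-identical copies elsewhere in the genome, so the reads behind the peak cannot be placed with certainty. MIR671 (chr7:151238421-151238538) lay in a peak of 358 nt on CHPF2 at 91.3, with no shNC peak at the place. MIR675 (chr11:1996759-1996831) is processed from H19, and its peak stood at 27.0. MIR4709 (chr14:74480133-74480204) lay under a peak of 270 nt on NPC2, a lysosomal cholesterol carrier, at 26.2. The other 3 hairpins were MIR7703 in PSME2 at 6.38, MIR10393 in B2M at 4.77 and MIR3654 in CHCHD3 at 8.45. The MIR3654 peak held 120 nt, had an FDR above 0.05 (log10 FDR -1.07) and had no shNC peak at the place. The C-rich sequence described for ac4C, CNNCNNCNNCNN, was searched on the hairpin strand only. It occurred in 2 of the 7 hairpins, MIR4709 and MIR10393, and in 24.6% of all hairpins. A miRNA under a peak is a position, and the fragments may come from the host transcript alone.

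Small nucleolar RNA (snoRNA) genes, which lie mostly in introns, shared bases with 34 peaks of 26 host genes. They were 34 of the 1199 snoRNA genes of RefSeq, 21 of the box C/D and 13 of the box H/ACA class, and 14 were covered whole. Genes for ribosomal proteins were the hosts of 21 of them, and of 19 of 33 in the shNC list. How many of all 1199 snoRNA genes lie in such hosts was not counted here. The highest fold enrichment stood on GAS5, a noncoding snoRNA host, in a peak of 328 nt that covered SNORD81 whole, at 109. On RPLP2, 95 nt of SNORA52 lay under a peak at 79.5. RPL13A carried SNORD32A, SNORD33, SNORD34 and SNORD35A under peaks at 2.28, 8.72 and 7.61. NOP56 carried SNORD86 and SNORD57, each covered whole, at 6.34 and 4.23. The median of the 34 peaks was 7.12, below the 12.4 of all peaks, and their median exonic length was 286 nt beside 209 nt. The 32 shNC peaks over snoRNA genes went the other way, with a median of 16.9 against 12.4 for all shNC peaks. In the shNC list 33 snoRNA genes lay under a peak, and 29 did so in both lists. Whether spliced host RNA, unspliced RNA or the snoRNA itself gave the signal was not tested.

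Most genes carried 1 peak. There were 3852 genes with 1 peak (77.2%), 905 with 2 (18.1%) and 230 with 3 or more (4.61%), and the 2 genes at the top had 6 and 7. RAPGEF3, which encodes an exchange factor activated by cyclic AMP, had 7 peaks over 2643 nt in all, with fold enrichments from 8.87 to 84.8. It was named by position, and 2 of its peaks shared bases with a peak on the opposite strand. RPL3 had 6 peaks with fold enrichments of 38.7, 6.65, 5.50, 5.25, 3.22 and 2.5. A further 10 genes had 5 each, and the 6 of these with the smallest p-values are named. RPL13 ranged from 2.29 to 18.8, RPL13A from 2.28 to 61.6, RPL14 from 3.13 to 9.80 and PPIA, the prolyl isomerase cyclophilin A, from 4.29 to 30.3. IMPDH2, an enzyme of guanine nucleotide synthesis, ranged from 4.23 to 85.3, and PKMYT1, an inhibitory kinase of CDK1, from 3.04 to 20.7. In the 8 genes named, the highest fold enrichment was 3.13 to 27.0 times the lowest. Over the list, median fold enrichment was 12.7 for peaks of genes with 1 peak and 11.4 for those of genes with 2. In 26 genes the rows overlapped each other, and H2AX had peaks of 329 nt at 51.4 and 41.4 that were shifted by 5 nt.

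**Figure D1:**
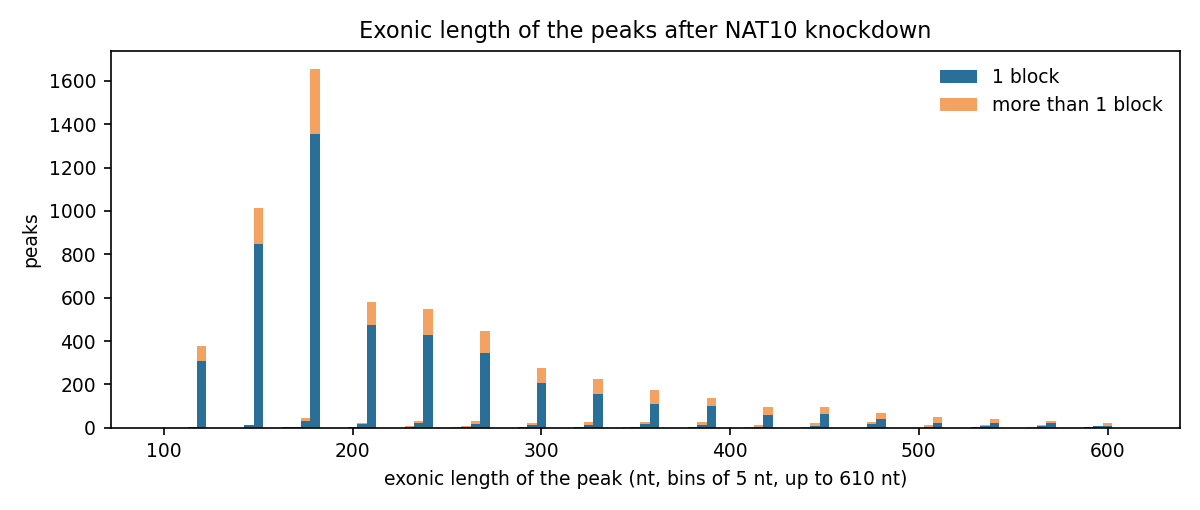
Number of peaks in the shNAT10 list by exonic length (horizontal axis, nt, in bins of 5 nt, with longer peaks not drawn), with peaks of 1 block in blue and peaks of more than 1 block stacked in orange. The lengths gather at multiples of 30 nt, and the tallest column stands near 180 nt.

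Exonic length is the sum of a peak's blocks, each block being a stretch of exon between introns. Its median was 209 nt (95% interval 204 to 210), with 179 nt at the 25th and 292 nt at the 75th percentile. The lengths came in steps, and 4396 of the 4883 peaks with 1 block (90.03%) lay within 1 nt of a multiple of 30 nt, as the plot of lengths shows. Peaks of at least 500 nt were rare at 331 (5.16%). The longest, 1409 nt, lay on the mitochondrial 16S ribosomal RNA MT-RNR2 with a fold enrichment of 21.1. It was followed by H19, an imprinted noncoding RNA, with 1249 nt in 3 blocks at 141. PAX8, a transcription factor, had 1229 nt at 63.8, and the lysosomal protease CTSB had 1199 nt in 2 blocks at 87.4.

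Introns were crossed by 1534 peaks (23.9%, 95% interval 22.88 to 24.96). Of these, 1082 had 2 blocks, 346 had 3, 79 had 4 and 27 had 5 to 8. The median intron crossed was 601 nt and the longest was 162088 nt. Genomic span rose from a median of 181 nt for 1 block to 3548 nt for 4 blocks. TNNT1, slow skeletal troponin T, and PPIH, a cyclophilin of the spliceosome, had the most blocks at 8. The TNNT1 peak held 685 nt of exon over 8033 nt of chromosome 19 at a fold enrichment of 124, and the PPIH peak held 560 nt over 17131 nt of chromosome 1 at 24.5. The read-through entries RPL17-C18orf32 and NME1-NME2 followed with 7 blocks at 11.9 and 19.2, and both shared bases with a peak of another gene on the same strand.

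**Figure D2:**
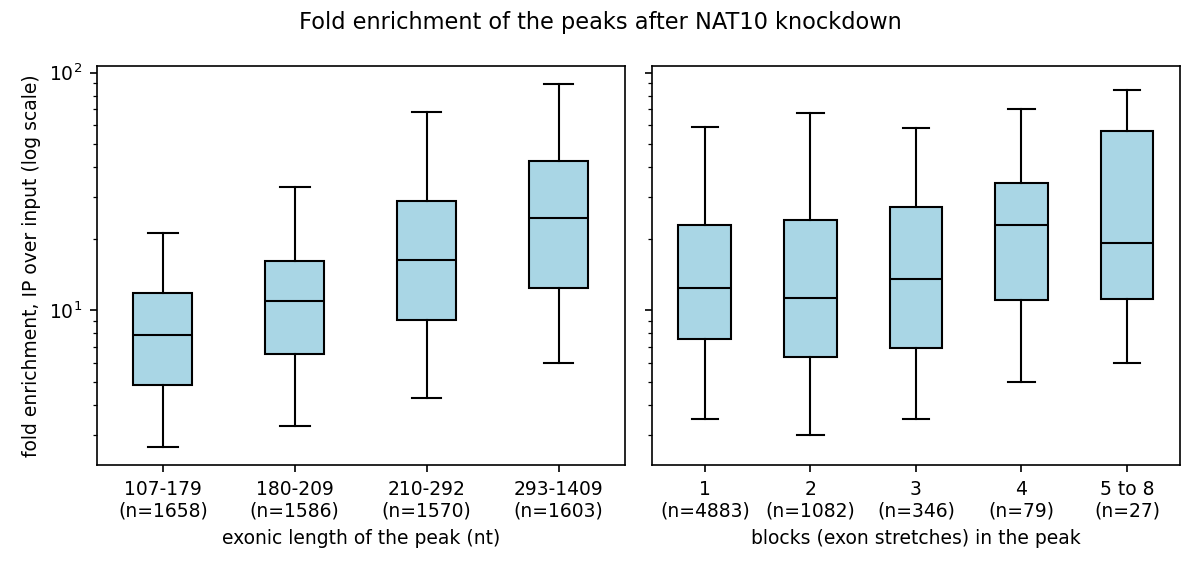
Fold enrichment of IP over input (vertical axis, log scale) of shNAT10 peaks in 4 equal classes of exonic length (left) and by number of blocks (right). Boxes run from the 25th to the 75th percentile with the median as a line, and whiskers reach the 5th and 95th percentiles. Medians climb from 7.88 to 24.5 over the length classes.

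Longer peaks had higher fold enrichment. With the peaks split into 4 equal classes by length, the median was 7.88 in the shortest class (107 to 179 nt), 11 in the second, 16.3 in the third and 24.5 in the longest (293 to 1409 nt). Spearman's rho over the 6417 peaks was 0.50, given as a description because all peaks share the same pair of libraries. By block count the median was 12.4 for 1 block, 11.3 for 2, 13.6 for 3, 22.9 for 4 and 19.2 for 5 to 8, and median exonic length rose alongside from 181 nt to 560 nt. At like length the peaks that crossed introns were lower. In the class of 210 to 292 nt they had a median of 12.8 in 350 peaks, against 17.3 in 1220 peaks of 1 block, and in the longest class 22.8 against 25.8.

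The highest fold enrichment, 366, stood on MZT2B, a component of the gamma-tubulin ring complex, in a peak of 239 nt in 2 blocks on chromosome 2. P2RY11, a receptor for ATP, followed at 329, and its peak shared bases with one on the opposite strand. RPP25, a subunit of RNase P and RNase MRP, had 318. PROSER2 had 305, the homeobox factor MSX1 had 241, and the glycolytic enzyme HK1 had 232. PPP2R2D, a regulatory subunit of protein phosphatase 2A, also had 232, and PSAP, the precursor of lysosomal saposins, had 230. SH3BP1 and PDXP shared bases of the same place on chromosome 22 and both had 241. The growth factor IGF2 and an unnamed identifier shared one place at 212. Of these 12 peaks, 10 shared bases with a shNC peak. Those of SH3BP1 and PDXP did not. Like fold enrichments came with unlike p-values, as log10 p was -238 for HK1 and -72.1 for PPP2R2D. It was -104 for RPP25, -99.8 for PROSER2 and -75.1 for MSX1, SH3BP1 and PDXP. MZT2B had -441, P2RY11 -270, PSAP -261 and IGF2 -161. The input reads behind these ratios were not analysed here. At the other end stood HSP90AB1, a cytosolic chaperone, at 1.17, the protease CTSD at 1.37 and the phosphate carrier SLC25A3 at 1.39, in peaks of 120 to 150 nt.

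Fold enrichment and the size of log10 p went together over the list (Spearman's rho 0.51 over 6417 peaks, as a description). The smallest finite p-values, with log10 p from -24000 to -11200, belonged to MT-CO3 (32.9), FTH1 (49.6), an identifier on the opposite strand of FTH1 (46.6), MT-CO2 (8.21), MT-CO1 (12.2) and ACTB (44.9), with fold enrichments in parentheses. These are subunits of cytochrome c oxidase, the ferritin heavy chain and beta-actin. In 18 further rows the p-value was written as minus infinity on the log scale, among them GAS5 (109), RAPGEF3 (84.8), KRT13 (78.7) and EIF4EBP1 (78.6). MSX1, at 241, had a log10 p of only -75.1.

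Many fold enrichments and p-values were shared exactly. There were 2181 peaks (34.0%) whose pair of fold enrichment and p-value was held by 5 or more peaks, and the most frequent pairs were 7.61 with a log10 p of -1.72 in 114 peaks and 6.76 with -1.49 in 110 peaks. The common values stood on multiples of 0.845, and 841 of the 2529 peaks with a fold enrichment under 10 lay within 0.008 of such a multiple. Steps of one size arise when whole reads are divided by a constant, and the read counts behind the peaks were not analysed here. The peaks with a shared pair had fold enrichments from 3.21 to 57.5, with a median of 11.5 against 13.1 for the rest. They were short, at a median of 180 nt against 241 nt for the rest. Of them, 21.9% had an FDR above 0.05, against 1.32% of the rest. Of the 4987 genes, 1589 had peaks of this kind only.

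Chromosome 19 held the most peaks, 673 (10.5%), ahead of chromosome 1 with 636 and chromosome 17 with 506. Set against the protein-coding genes of each chromosome, the order changed. On chromosome 16, 30.9% of protein-coding genes had a peak (95% interval 27.9 to 34.1), on chromosome 22 30.4%, on chromosome 19 29.2% and on chromosome 17 27.8%, and these 4 intervals overlapped. Chromosome 13 was lowest at 13.0% (9.84 to 17.0), followed by X at 14.7%, chromosome 6 at 15.5% and chromosome 4 at 15.7%. Peaks per gene with a peak varied little, from 1.21 on chromosome 10 to 1.39 on chromosome 8, with 1.35 on chromosome 19. Median fold enrichment of the nuclear chromosomes lay between 10.1 and 15.2.

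Peaks sat towards the 3′ ends of genes. In RefSeq genes that span at least 5000 nt, 57.7% of 5045 peaks ended within 1000 nt of the gene's 3′ end (95% interval 56.3 to 59.1), and 2.101% began within 1000 nt of its start. Peaks of 1 block lay near the 3′ end more often than peaks that crossed introns, at 60.8% and 47.0%. Peaks on a shNC peak lay there in 66.1% and the other peaks in 49.9%. The shNC list gave 57.6% and 2.23%. RefSeq gives the outermost ends of a gene, and transcripts that end earlier count as far from the end. The share of exonic bases within 1000 nt of each end was not counted, so these shares have no background here.

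Gene groups differed widely in how many members had a peak, and the 21.8% of all protein-coding genes is the background for groups of such genes. Of 15 mitochondrially encoded genes, 14 had one. MT-ND4L did not. Their 18 peaks had 1 block each and a median fold enrichment of 6.95. The 3 subunits of cytochrome c oxidase stood at 32.9 (MT-CO3), 12.2 (MT-CO1) and 8.21 (MT-CO2). Complex I ran from 1.47 to 19.4, with MT-ND3 at 19.4, MT-ND5 at 11.2, 2.06 and 1.47, MT-ND6 at 8.27, MT-ND4 at 5.37, MT-ND1 at 2.77 and MT-ND2 at 2.40. MT-CYB stood at 10.4. The ATP synthase genes MT-ATP8 and MT-ATP6 overlap on the genome, and their peaks stood at 2.05, 4.38 and 5.68. MT-RNR1, the 12S ribosomal RNA, had peaks at 12.2 and 3.26. All but one of the 18 peaks shared bases with a shNC peak.

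Of the 84 cytosolic ribosomal protein genes, 78 had a peak (92.9%, 95% interval 85.3 to 96.7), and the 6 without one were RPL10L, RPL26L1, RPL39L, RPL3L, RPL7L1 and RPS4Y1. They held 184 peaks, 60 of the genes had 2 or more, and the median fold enrichment was 14.9. The large subunit stood at a median of 15.5 in 116 peaks and the small subunit at 11.3 in 68. The highest were RPL11 (147), RPL36A (133), RPLP2 (125) and RPL8 (119). Ribosomal protein genes have many near-identical processed copies, so reads may have been shared among them. Introns were crossed by 44.6% of these peaks.

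The nuclear genes of the respiratory chain followed, with 64 of 74 (86.5%) and 100 peaks at a median of 12.7. All 18 genes listed for complex V had peaks, 29 of 37 of complex I, 8 of 9 of complex III and 9 of 10 of complex IV. COX4I1, a cytochrome c oxidase subunit, had 3 peaks at 8.44, 51.9 and 176. The other high values were COX7A2 (133), ATP5F1E (119) and COX6C (102). In this list 60.0% of the peaks crossed introns. Mitochondrial ribosomal proteins had peaks on 52 of 77 genes at a median of 8.45, with MRPL53 at 136, MRPL28 at 130, MRPL51 at 84.9 and MRPL27 at 61.1. Translation factors had peaks on 43 of 62 genes at a median of 9.30, led by EIF5AL1 (143), EIF1 (130), the translation repressor EIF4EBP1 (78.6) and EIF3G (76.9). EIF5AL1 is a near-copy of EIF5A, and its reads cannot be told apart with certainty.

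Zinc finger genes named ZNF had peaks on 69 of 509 (13.6%, 95% interval 10.9 to 16.8), below the 21.8% of all protein-coding genes. ZNF234 stood at 54.1, ZNF83 at 45.6, ZNF207 at 43.9 and ZNF706 at 36.3. Of their 81 peaks, 59 had one of the exactly shared pairs of fold enrichment and p-value, and without such peaks 20 genes remained in the list. Cytosolic ribosomal proteins had 4 such peaks of 184 and kept all 78 genes. Histone genes had peaks on 7 of 89 (7.87%), with a median fold enrichment of 36.1 over 12 peaks. H1-10 stood at 102, H3-3B at 72.8 and 36.3, and H2AZ1 at 72.6. Variant and linker histone genes such as these are transcribed outside S phase as well and several give polyadenylated RNA, unlike the clustered histone genes.

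The study named the MAPK/ERK pathway, in which receptors pass a signal through RAS, RAF and MEK to ERK. Peaks lay on 13 of the 31 genes listed for it, at a median fold enrichment of 12.1. Among the receptors, 6 of 7 had peaks. EGFR stood at 11.2, ERBB2 at 15.2 and 6.48, ERBB3 at 9.80 and 16.1, FGFR1 at 17.7, FGFR2 at 5.92 and FGFR3 at 19.9. The adaptor SHC1 stood at 12.1. HRAS had a peak of 808 nt in 4 blocks at 10.6, and NRAS had none. The kinase ARAF stood at 11.9. MAP2K2 (MEK2) had peaks at 6.51 and 13.5 and MAPK3 (ERK1) had one at 21.8, whereas MAP2K1 (MEK1) had none. Of the 10 inhibitors, DUSP5, a phosphatase of nuclear ERK, had a peak at 54.9, the highest of the list. There was no shNC peak at that place. GLMP, COPS4, the transcription factor NRF1 and the chemokines CXCL3, CXCL8, CXCL10 and CXCL11 had no shNAT10 peak, and of these GLMP and COPS4 were in the shNC list. UBE2V1, a ubiquitin-conjugating enzyme variant, had 1 peak of 121 nt at 9.30. It shared bases with a peak of another gene on the same strand, and was not counted when each place was counted once.

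Peaks lay on 7 of 17 markers of squamous epithelium (41.2%, Wilson interval 21.6 to 64.0). This interval holds the 21.8% of all protein-coding genes, near its lower end. The 7 were CDH1 (E-cadherin, 39.7), SFN (14-3-3 sigma, 27.9 in 1140 nt), TP63 (23.7), PERP (12.7), ITGB4 (9.99), DSC3 (6.20) and LAMB3 (6.10). The listed keratins KRT5, KRT6A, KRT14, KRT16 and KRT17 had none. Other keratins, looked up after the values were seen, did have peaks. KRT7 had 4 with fold enrichments from 3.55 to 179, KRT8 had 2 at 46.7 and 15.2, KRT18 had 4 from 5.26 to 115, KRT19 had 4 from 22.8 to 118, and KRT13 had 3. None of the 6 fibroblast, 5 leukocyte and 4 endothelial markers had a peak. The Wilson intervals of these shares reached from 0 to 39.0%, 43.5% and 49.0%. All of them hold the 21.8% of protein-coding genes, so lists this short cannot show a lack of peaks. The fibroblast marker COL1A1 had a peak in the shNC list. A gene without a peak may be unmodified, weakly expressed, covered by too few reads or among the 326 genes without a symbol. These cannot be told apart here.

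Among the noncoding RNAs listed, 7 of 8 snoRNA hosts had peaks. The share of all noncoding RNA genes with a peak was not counted, so these counts have no background here. GAS5 stood at 109 and 4.65, ZFAS1 at 50.5 and 18.7, SNHG16 at 33.8, 15.6 and 12.7, SNHG6 at 32.4, SNHG8 at 27.5, SNHG5 at 6.62 and 6.28, and SNHG15 at 5.49. SNHG1 had none. The nuclear RNA NEAT1 had peaks at 11 and 2.90, and MALAT1 had none. The 6 small structured RNAs, RN7SK, RN7SL1, RN7SL2, RMRP, RPPH1 and TERC, had none.

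**Figure D3:**
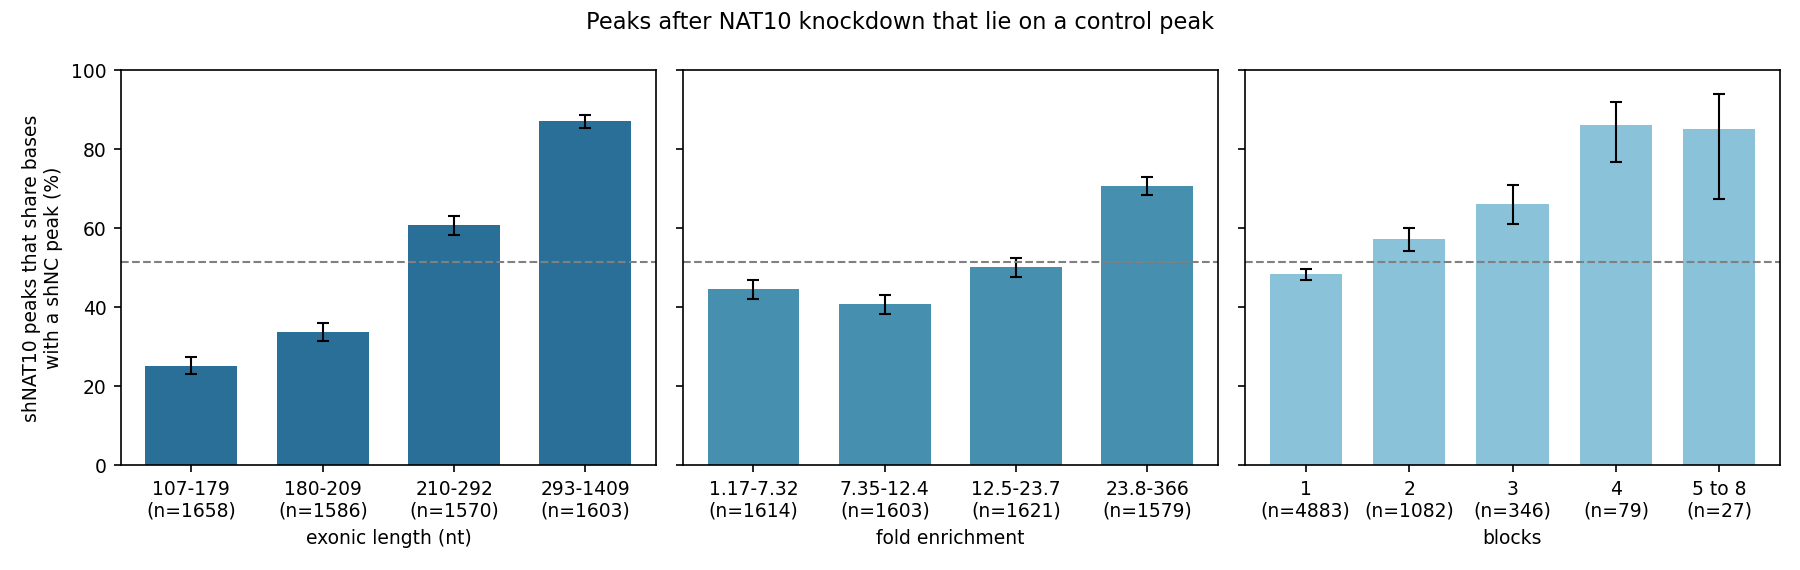
Share of shNAT10 peaks that share exonic bases with a shNC peak on the same strand (vertical axis, percent) in 4 equal classes of exonic length (left), in 4 of fold enrichment (middle) and by number of blocks (right). Bars are shares with 95% Wilson intervals, and the dashed line marks 51.5% over all peaks. The share climbs from 25.2% in the shortest to 87.3% in the longest class.

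Which of the peaks lay where the control cells had one was compared by position alone. Of the 6417 peaks, 3305 shared at least 1 exonic base with a shNC peak on the same strand, or 51.5% (95% interval 50.3 to 52.7). Another 1169 (18.2%) lay at a place without a shNC peak in a gene that had one elsewhere, and 1943 peaks (30.3%) of 1741 genes had no shNC peak at the place or in the gene. The shared peaks were longer, with a median of 269 nt against 180 nt in both other classes, and their median fold enrichment was 15.2 against 9.30 and 11. By exonic length the share was 25.2% in the shortest class, 33.7% in the second, 60.8% in the third and 87.3% in the longest. By fold enrichment it was 44.6%, 40.8%, 50.2% and 70.9% from the lowest to the highest class. It was 48.4% for peaks of 1 block and 86.1% for peaks of 4 blocks. A longer peak reaches an overlap of 1 base more easily, and the part of this in these shares was not tested. Of the peaks with an exactly shared pair of values 20.7% lay on a shNC peak, against 67.3% of the others.

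Genes with more peaks were also found in the shNC list more often. This held for 59.5% of the genes with 1 peak (95% interval 57.9 to 61.0), 81.1% of those with 2 (78.4 to 83.5) and 93.5% of those with 3 or more (89.5 to 96.0). The part that the number of peaks itself had in this was not tested. Ribosomal protein peaks lay on a shNC peak in 91.8%, mitochondrially encoded ones in 94.4% and ZNF peaks in 22.2%. The highest fold enrichments without a shNC peak in the gene were SH3BP1 and PDXP (241), NPIPB3 (206), FANCD2 (192), CEBPD (150), NTHL1 (139), BASP1 (136) and DHX33 (121). FANCD2 acts in the repair of DNA crosslinks, CEBPD is a transcription factor of the C/EBP family, NTHL1 is a DNA glycosylase and DHX33 is an RNA helicase. NPIPB3 belongs to a family of near-identical segmental copies. With 1 library pair in each condition, a gain of ac4C, a change of transcript level and chance at the calling threshold cannot be told apart at these places.

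Some places were counted under more than 1 gene. On the same strand 375 peaks (5.84%) shared bases with a peak of another gene. On the opposite strand 597 peaks (9.30%) did so. In 228 pairs of opposite strand the peaks shared at least 50% of the bases of both, and in 140 of these the fold enrichments were within 1.1 times of each other. EMG1 on the plus strand and LPCAT3 on the minus strand both stood at 112. KRT13 and the identifier AC019349.1 both stood at 78.7, and FTH1 at 49.6 faced an identifier at 46.6. The lists do not say whether the counting used strand, so reads of these partners cannot be told apart. Counted once on either strand, there were 5934 places.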

How the data were processed

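acRIP-seq libraries of FaDu cells (1 IP and 1 input library in each of 2 conditions) were analysed from the peak lists. Per the labels, total RNA was fragmented and precipitated with an ac4C antibody, and the submitters' processing notes name cutadapt 2.5, HISAT2 2.1.0, HOMER 4.10.4 and featureCounts 1.6.3, with human builds GRCh38 and hg38 and a mouse build, GRCm38. The paper's methods name a different kit, and its results speak of mRNA. The peak caller and its thresholds are not given in the sources used here. The deposited lists give a fold enrichment as a linear ratio of IP over input, the p-value as its log10, and the FDR as a log10 score from the authors. The authors' deposited table of differential peaks served for gene symbols only, and its fold changes and p-values were not used. Library depth is unknown.

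Peak blocks were read into exonic bases with Python 3.11.15, pandas 2.3.3 and scipy 1.17.1. Identifiers without a symbol in the files were named by position, where at least 90% of the exonic bases of every peak lay in 1 RefSeq gene (GRCh38.p14) on the same strand. This gave 2713 names beside 1948 from the files, and 326 genes stayed unnamed. Where both existed for 1846 identifiers, 95.2% were equal. Overlap needed 1 exonic base on the same strand. Shares have 95% Wilson intervals and medians 95% order-statistic intervals. The overlap and interval code was tested on simulated peaks. No test between conditions was possible with 1 library pair each. The genes named were those of the 12 highest (at an FDR of at most 0.05) and 3 lowest fold enrichments. Added to these were the 8 genes with the most peaks (ties to the smaller p-value), the 4 longest peaks and the 4 with the most blocks. The 6 smallest finite p-values and the genes the study names were also included. In each list, all members with a peak up to 5 or the 4 highest were named. Further members of the smaller lists, the keratins, and the miRNA and snoRNA hosts were named after their values were seen. The members and lists were chosen with earlier results of these data known. Other alternatives were an FDR of at most 0.05, a fold enrichment of at least 4, each place counted once, and no mitochondrial genome. Apart from the miRNA hairpins, sequences under the peaks were not analysed here. Some genes are not reported here by name.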

Additional observations from a re-analysis of the deposited data

How the results depend on the processing

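With 1 library pair no alternative speaks to replicate error, and depth limits which weak places could be called. The ratio of median fold enrichment of peaks that cross introns to peaks of 1 block was 0.972, and changed side to 1.03 with fold enrichments of at least 4 only and to 1.008 without the peaks of an exactly shared pair of values, while at 150 to 300 nt it was 0.788. Keeping only an FDR of at most 0.05 moved genes with 2 or more peaks to 21.6%, median fold enrichment to 13.5, Spearman's rho of fold enrichment and length to 0.469 and peaks on a shNC peak to 55.1%. Keeping fold enrichments of at least 4 gave 19.9% of genes with 2 or more peaks, a median of 13.5 and a rho of 0.472. The highest value per gene had a median of 14.4, and 40.9% of peaks had 50% or more of their bases, and of the shNC peak's, in common. Without the peaks of an exactly shared pair, chosen after seeing the data, there were 4236 peaks, 20.04% of genes had 2 or more, 28.5% of peaks crossed introns, median length was 241 nt, median fold enrichment 13.1, rho 0.547, 11.5% lay on chromosome 19 and 67.3% on a shNC peak. Counting each place once on the same strand, leaving out the mitochondrial genome, and, both chosen after seeing the data, counting each place once on either strand or overlapping peaks of 1 gene once, moved none of these values beyond its interval and no count by 1.5 times, except that UBE2V1 dropped out when each place was counted once and the mitochondrially encoded genes dropped out with their genome. No paired analysis was possible because each group holds 1 library.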
